A study of Mus musculus with 6 samples.

Results

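The colony-stimulating factors and the chains of the GM-CSF receptor were examined in Lewis cells, a mouse lung carcinoma line. Members were every gene listed under the symbols Csf1, Csf2, Csf3, Csf2ra, Csf2rb or Csf2rb2, which gave 6 of the 16081 listed genes, 3 ligands and 3 receptor chains. They were selected with their SD70 against DMSO values already known, so those values are given below as a description and without a test. RNA-seq had been carried out on 6 samples, 3 treated with the vehicle DMSO and 3 with SD70, an inhibitor of the histone demethylase KDM4C, each for 24 hours. Cells of both groups were grown in DMEM with serum, and the labels name no genetic modification. The sources used here give no SD70 dose for this experiment. The methods of the study state for its experiments in general that they were repeated independently, but neither they nor the labels say that the 3 RNA-seq samples of a group came from separate cultures, so the p-values below measure the spread between these samples, which may be technical. The values are expected counts (reads assigned to a gene, with shared reads split) and FPKM (counts scaled by gene length and by library size). Totals lay between 15276744 and 17060424 counts per sample.

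Colony-stimulating factors are secreted proteins named for the blood cell colonies they raise in culture. Csf1 encodes M-CSF, which keeps monocytes and macrophages alive. Csf2 encodes GM-CSF, which acts on macrophages, granulocytes and dendritic cells. Csf3 encodes G-CSF, which drives the production and release of neutrophils. The receptor for GM-CSF is built from an alpha chain, encoded by Csf2ra, and a beta chain, encoded by Csf2rb, which the receptors for IL-3 and IL-5 also use. Mice carry a close copy, Csf2rb2, whose product serves the IL-3 receptor. Bound receptor activates JAK2 and STAT5, and SOCS-family proteins damp the signal. Tumor cells of several kinds are known to secrete these factors and so to act on myeloid cells around them. The mRNAs of many cytokines are short-lived because AU-rich elements, repeats of the letters ATTTA in the DNA of their 3' untranslated regions, are bound by decay proteins.

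The 3 ligand mRNAs differed in how densely their 3' untranslated regions held ATTTA. For each gene, the coding transcript with the longest 3' untranslated region was taken, and its other transcripts were not searched. In the GENCODE M21 transcripts the region of Csf2 was 317 bases long and held 9 copies of ATTTA, that of Csf3 was 669 bases long with 6 copies, and that of Csf1 was 2111 bases long with 4 copies. That is 28.4 copies per 1000 bases for Csf2, 8.97 for Csf3 and 1.89 for Csf1, beside a median of 1.49 over the 18097 coding genes with a 3' untranslated region of at least 200 bases. Csf2 stood first among those 18097 genes, a density of at least that of Csf3 was held by 0.829% of them, and one of at least that of Csf1 by 41.3%. The longer motif TTATTTATT, read on the sense strand with overlapping copies counted, occurred 4 times in Csf2, a number matched or passed by 0.323% of 21037 genes, and was absent from the regions of Csf1 and Csf3. No ATTTA was found in the 3' untranslated regions of the receptor chains, which were 602 bases long for Csf2ra, 1816 for Csf2rb and 1810 for Csf2rb2. The 30 bases of each ligand with the most copies show the difference, with ATTTA in capitals.
Csf2: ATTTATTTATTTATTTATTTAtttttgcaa
Csf3: ATTTAatATTTAtgcatATTTAagcctact
Csf1: ATTTAaatatctATTTAaaaaataggaagc
The Csf2 stretch, bases 239 to 268 of its 3' untranslated region, is a run of 5 overlapping copies. The Csf3 stretch, bases 42 to 71, holds 3 separate copies, and the Csf1 stretch, bases 2034 to 2063, holds 2. These letters describe the reference mRNA and were not measured in the cells.

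Promoter sequence was taken from RefSeq (GRCm38.p6), whose promoter table held 4 of the 6 members, Csf1, Csf2, Csf2ra and Csf2rb2. Since Csf1 and Csf2 were both higher with SD70, the 250 bases before each start are shown, with matches to the searched motifs in capitals.
Csf1, chr3:107760470-107760719, minus strand: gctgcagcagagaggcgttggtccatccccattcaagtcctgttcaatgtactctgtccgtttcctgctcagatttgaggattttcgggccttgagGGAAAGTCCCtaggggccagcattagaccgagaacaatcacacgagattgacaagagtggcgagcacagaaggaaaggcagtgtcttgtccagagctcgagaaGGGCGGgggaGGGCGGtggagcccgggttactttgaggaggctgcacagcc
Csf2, chr11:54249900-54250149, minus strand: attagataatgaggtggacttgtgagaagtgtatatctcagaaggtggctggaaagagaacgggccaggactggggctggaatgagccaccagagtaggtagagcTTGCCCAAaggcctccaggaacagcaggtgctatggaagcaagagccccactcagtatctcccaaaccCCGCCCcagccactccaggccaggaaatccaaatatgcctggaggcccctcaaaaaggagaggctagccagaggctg
The motifs searched, on both strands and over 300 bases that include 50 after the start, were the TATA box TATAAA, the AP-1 element TGACTCA, the cyclic AMP response element (CRE) TGACGTCA, the C/EBP-ATF element TGATGNAA, the C/EBP element TTGCNNAA, the NFAT core GGAAAA, the Sp1 element GGGCGG and the kappaB consensus. No match in these windows overlapped another. Csf1 held the kappaB consensus once, on the opposite strand with its first printed base 154 before the start, and GGGCGG at 2 places, 51 and 41 bases before the start. Csf2 held TTGCNNAA once, 145 bases before the start, and GGGCGG once on the opposite strand, 77 bases before it. Csf2ra held TGACGTCA and GGGCGG, and no searched motif was in the Csf2rb2 window. Of 27025 promoters in the table, 8.18% held the kappaB consensus, 10.8% held TTGCNNAA, 35.9% held GGGCGG and 1.88% held TGACGTCA. The Csf2 window follows the RefSeq start, which lies 232 bases upstream of the start of the GENCODE transcript, so the bases directly before that second start were not searched. GENCODE also lists coding transcripts of Csf1 with starts further downstream, for example at chr3:107760242. The bases directly before those starts were not searched either. A match is a description of the letters only.

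Csf1 was the most abundant of the 6 genes in every sample. Csf1 (NCBI Gene 12977, chr3:107741048-107760469, GRCm38.p6) had 4244, 3921 and 4003 expected counts in DMSO samples 1, 2 and 3, and 13441, 13630 and 12688 in SD70 samples 1, 2 and 3. The groups did not overlap, since the lowest SD70 value was 3.27 times the highest DMSO value after normalization by library size. Its log2 fold change in edgeR was 1.80 ± 0.05 (SE), a 3.49-fold higher level with SD70. The samples of a group lay close together, with an SD of 4.60% of the mean in DMSO and 1.61% in SD70.

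Csf2 showed the largest difference of the 6 genes. Csf2 (NCBI Gene 12981, chr11:54247270-54249899) had 105, 99 and 109 counts under DMSO and 2415, 2104 and 1924 under SD70. The groups were far apart, the lowest SD70 value being 20.0 times the highest DMSO value and the highest SD70 value 25.5 times the lowest DMSO value. The log2 fold change was 4.46 ± 0.08 (SE), or 21.9-fold, and ranked 4 among the 11552 genes tested. SD70 sample 1 was the highest of its group, and the SD of the SD70 samples was 9.07% of their mean.

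Csf3 was scarce with DMSO and remained the least abundant ligand with SD70. Csf3 (NCBI Gene 12985, chr11:98700183-98703631) had 21, 18 and 12 counts under DMSO and 131, 115 and 105 under SD70. The groups did not overlap, with the lowest SD70 value 5.58 times the highest DMSO value. The log2 fold change was 2.87 ± 0.20 (SE), or 7.30-fold, and its SE was the largest of the 3 ligands. On log2(FPKM + 1) in limma the difference was 1.93. The DMSO samples varied by an SD of 27.7% of their mean, at counts where counting error alone is large. DMSO sample 3 was the lowest and DMSO sample 1 the highest. Csf1 ranked 100 and Csf3 ranked 27 among all tested genes by log2 fold change.

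All 3 members with enough counts to be tested met the threshold used for calls (an adjusted p under 0.01 by edgeR's quasi-likelihood test, with p-values adjusted by Benjamini-Hochberg over all tested genes, and a difference of at least 1 on the log2 scale) as higher with SD70, as 3.29% of the 11552 genes tested did. Groups that did not overlap were seen for 64.4% of the tested genes. Because these values chose the members, nothing is read from either count. With these bulk samples, more cells making a factor and more mRNA per cell cannot be told apart.

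**Figure D1:**
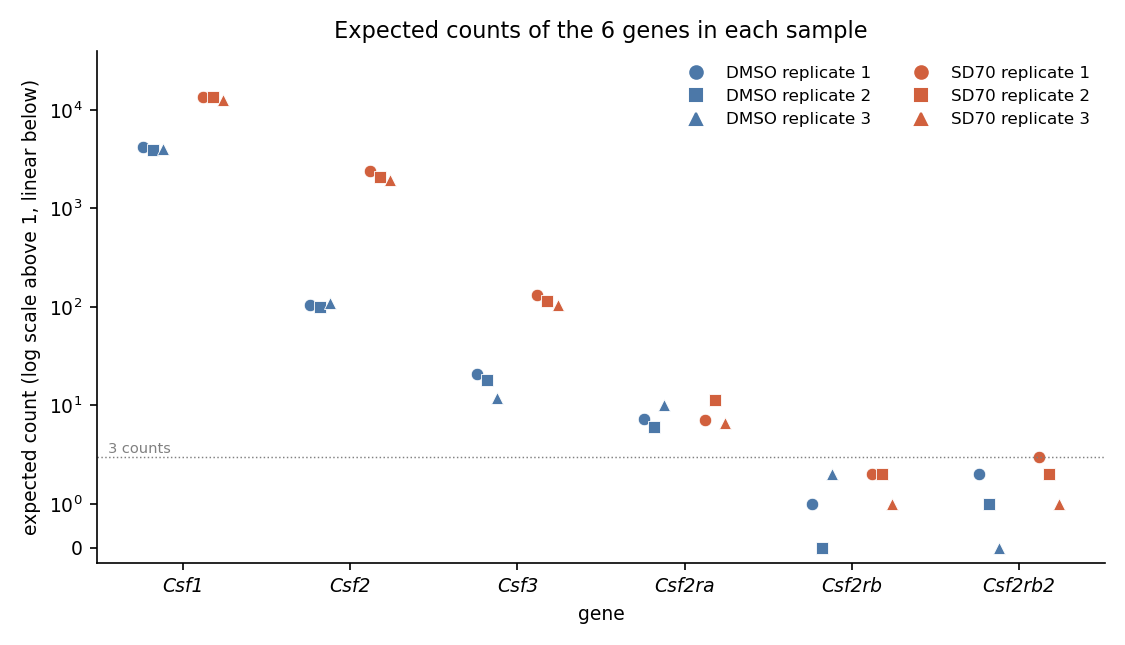
Expected counts (y axis, log scale above 1 and linear below) of the 6 genes (x axis) in each sample, with DMSO samples in blue and SD70 samples in orange and 1 symbol per replicate number. Csf1, Csf2 and Csf3 separate the groups, while Csf2ra overlaps and no Csf2rb or Csf2rb2 sample is above the dotted line at 3 counts.

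The receptor chains were at or near the limit of detection in both groups. Csf2ra (NCBI Gene 12982, chr19:61217191-61228461) had 7.31, 6 and 10 expected counts under DMSO and 7.06, 11.4 and 6.65 under SD70. These ranges overlapped, and Csf2ra did not pass the filter on low counts. In the fit that kept every gene with at least 1 count, its log2 fold change was 0.21 ± 0.48 (SE), so an SE larger than the difference. Csf2rb (NCBI Gene 12983, chr15:78325800-78351001) had 1, 0 and 2 counts under DMSO and 2, 2 and 1 under SD70. Csf2rb2 (NCBI Gene 12984, chr15:78282507-78305721) had 2, 1 and 0 counts under DMSO and 3, 2 and 1 under SD70. No Csf2rb or Csf2rb2 sample was above 3 counts, which corresponds to a CPM of 0.176 to 0.196, so no fold change is given and a difference was not detectable at this depth. Reads of Csf2rb and Csf2rb2, which are close copies, may have been assigned to either gene, so their separate values are uncertain.

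On the FPKM scale, which allows levels of different genes to be compared, the order of the ligands was Csf1, Csf2, Csf3 in both groups. With DMSO the FPKM values in samples 1, 2 and 3 were 66.4, 60.9 and 60.3 for Csf1, 7.35, 6.84 and 7.32 for Csf2, and 1.05, 0.90 and 0.58 for Csf3. With SD70 they were 212, 212 and 219.8 for Csf1, 171, 144.9 and 149 for Csf2, and 6.55, 5.63 and 5.84 for Csf3. In neither group did the ranges of neighbouring ligands overlap. Mean FPKM went from 62.5 ± 3.38 (SD, n = 3) to 214.8 ± 4.39 for Csf1, from 7.17 ± 0.29 to 155 ± 14.1 for Csf2, and from 0.84 ± 0.24 to 6.01 ± 0.48 for Csf3. The receptor chains stayed at or below 0.08 FPKM in every sample. With DMSO, Csf2ra (0.04 to 0.07) overlapped Csf2rb at 0 to 0.07 and lay above Csf2rb2 at 0 to 0.03, whereas with SD70 Csf2ra at 0.05 to 0.08 lay above Csf2rb and Csf2rb2, which both spanned 0.02 to 0.04. These FPKM values rest on a few counts each, and those of Csf2ra were divided by a long gene length, given below, which lowers them.

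The balance among the ligands moved towards Csf2. Of the summed FPKM of the 3 ligands, Csf2 made up 9.82%, 9.96% and 10.7% in DMSO samples 1, 2 and 3, and 43.9%, 40.0% and 39.7% in SD70 samples 1, 2 and 3. The share of Csf1 was 88.8%, 88.7% and 88.4% with DMSO and 54.4%, 58.5% and 58.7% with SD70. Csf3 stayed between 0.85% and 1.68% in all 6 samples. The FPKM of Csf1 was between 8.24 and 9.04 times that of Csf2 with DMSO and between 1.24 and 1.48 times with SD70, and the FPKM of Csf2 was between 7 and 12.6 times that of Csf3 with DMSO and between 25.5 and 26.1 times with SD70. Ranked by FPKM among the 16081 listed genes, Csf2 stood between 7601 and 7848 with DMSO and between 437 and 531 with SD70. Csf1 stood between 1270 and 1430 with DMSO and between 313 and 330 with SD70, and Csf3 between 10487 and 10889 and then between 7843 and 8212. These are descriptions of values that took part in choosing the members.

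**Figure D2:**
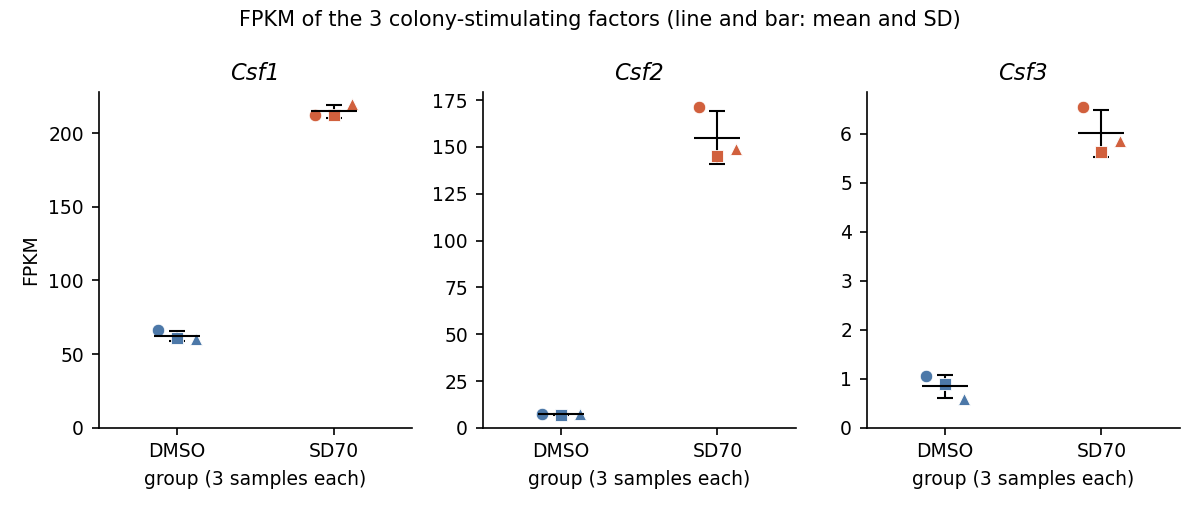
FPKM (y axis, from 0, with its own scale per gene) of Csf1, Csf2 and Csf3 in the DMSO and SD70 samples (x axis), with 1 point per sample, a horizontal line at the mean and a bar for the SD of 3 samples. Mean Csf2 is 7.17 with DMSO and 155 with SD70, beside Csf1 at 62.55 and 214.8, so the ratio of Csf1 to Csf2 is smaller with SD70.

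The gene length that the authors' FPKM values imply was steady across samples for each ligand. Expected count divided by FPKM and by the library total (as in the definition of FPKM) gave 3.78 to 3.89 kb for Csf1, 0.846 to 0.873 kb for Csf2 and 1.18 to 1.21 kb for Csf3. The length used was thus alike in both groups. For Csf2ra the same division gave 8.37 to 8.94 kb, well above the 1849 bases of its GENCODE mRNA. A longer length lowers FPKM, so for the same count Csf2ra gets a lower FPKM than a shorter gene. For Csf2rb and Csf2rb2, few counts and FPKM values with 1 or 2 digits make the implied length uninformative.

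The factors that share a lineage or a receptor family with the members were examined next. This list and those below were drawn up with earlier results of these data known. Of 6 listed genes for other haematopoietic growth factors, 3 had enough counts to be tested. The number called in either direction was 0 by edgeR's quasi-likelihood test, DESeq2 or limma on FPKM, where 3.29% of all tested genes were called higher and 2.61% lower in edgeR, while 1 was higher and 1 lower at an unadjusted p under 0.05 in edgeR, a threshold that 32.2% of all tested genes passed as higher and 31.4% as lower. Kitl, which encodes stem cell factor, had 1592, 1552 and 1551 counts under DMSO and 2216, 2107 and 2078 under SD70. Its log2 fold change of 0.54 ± 0.05 (SE) had an adjusted p of 1.01e-10 by edgeR's quasi-likelihood test, below the fold minimum. Il34, which encodes the other ligand of the M-CSF receptor, had 276, 262 and 261 counts under DMSO and 188, 170 and 166 under SD70, so its groups separated in the direction opposite to Csf1. The log2 fold change of Il34 was -0.51 ± 0.10 (SE), with an adjusted p of 3.06e-05 by edgeR's quasi-likelihood test. Flt3l, the ligand of FLT3 on blood cell progenitors, had 61, 44 and 56 counts under DMSO and 52, 47 and 38 under SD70, overlapping ranges with a log2 fold change of -0.14 ± 0.19 (SE). Il3, which lies beside Csf2 on chromosome 11, and Il5 each had 1 count, in SD70 sample 2, and 0 in the other samples. Thpo, which encodes thrombopoietin, had 1 count in each of DMSO sample 3 and SD70 sample 3. Epo was not analysed here.

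Receptors for these factors were scarce too. Csf1r, the M-CSF receptor, had 0, 1 and 0 counts under DMSO and 0 in each SD70 sample. Csf3r, the G-CSF receptor, had 0, 2 and 2 counts under DMSO and 0 in each SD70 sample. A count of 0 allows up to 3 counts, or a CPM of 0.178 to 0.196 under SD70. Kit, the stem cell factor receptor, had 1 count over all 6 samples. Flt3 had 7, 2 and 0 counts under DMSO and 3, 5 and 5 under SD70. Epor, the erythropoietin receptor, was the only 1 of 6 listed receptors to be tested, with 40, 39 and 47 counts under DMSO and 14, 24 and 21 under SD70. Its log2 fold change was -0.99 ± 0.24 (SE) with an adjusted p of 0.000627 by edgeR's quasi-likelihood test, just short of the fold minimum. It passed that minimum without DMSO sample 1, DMSO sample 2, SD70 sample 2 or SD70 sample 3, at log2 fold changes of -1.02, -1.05, -1.13 and -1.09, and also with library totals alone (-1.03) and when each sample had to hold 10 counts or more (-1.01). Over all 14 alternatives the log2 fold change of Epor ran from -1.13 to -0.49, and its adjusted p did not stay under 0.01 in every one. Il3ra and Il5ra were not analysed here.

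The kinases, adaptors and STAT proteins downstream of the receptors were present in the cells, and none was called. Of 21 listed genes, 20 were tested, and the count of calls was 0 by edgeR, DESeq2 and limma, beside 3.29% of all tested genes called higher and 2.61% called lower in edgeR. At an unadjusted p under 0.05 in edgeR, 7 were higher and 6 lower with SD70, beside 32.2% and 31.4% of all tested genes. The median log2 fold change of the list was -0.04, close to the median of all tested genes (-0.0043). The largest differences were those of Pik3r1, a regulatory subunit of PI3 kinase, at 0.79 ± 0.06 (SE, adjusted p = 3.60e-13 by edgeR's quasi-likelihood test), Fes, a tyrosine kinase, at 0.71 ± 0.11 (adjusted p = 5.76e-07), and Jak3, a kinase of the common gamma chain, at -0.47 ± 0.08 (adjusted p = 2.40e-06). All were below the fold minimum.

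Genes whose products damp receptor signalling were mostly lower with SD70. Of 12 tested genes in this list, 1 was called lower and 0 were called higher, where 2.61% of all tested genes were called lower. With no fold minimum, 9 of the 12 were lower and 1 was higher at an adjusted p under 0.01 by edgeR's quasi-likelihood test, where 49.9% of all tested genes passed, 24.2% as lower and 25.8% as higher. The median log2 fold change of the list was -0.41. Cish, a STAT5-induced inhibitor of cytokine receptors, had 19, 16 and 13 counts under DMSO and 11, 4 and 4 under SD70. It fell by 1.23 on the log2 scale (SE 0.40, adjusted p = 0.00864 by edgeR's quasi-likelihood test), a call that DESeq2 did not make (adjusted p = 0.0474) and that was lost without DMSO sample 1, DMSO sample 2, SD70 sample 2 or SD70 sample 3 (adjusted p 0.0469, 0.0193, 0.064 and 0.0423). Without SD70 sample 1, which had the highest SD70 count, Cish was at -1.86. It was also not called in limma, at -0.24 on log2(FPKM + 1) and -0.95 on log2(FPKM + 0.1). Pias1, an inhibitor of STAT binding to DNA, was at -0.51 ± 0.06 (adjusted p = 2.95e-09 by edgeR's quasi-likelihood test), and Inpp5d, the phosphatase SHIP1, was at -0.57 ± 0.41 on 5 to 15 counts and did not pass (adjusted p = 0.230).

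Targets of STAT5 and survival genes differed in both directions. Of 11 tested genes, 2 were called higher and 0 lower, where 3.29% and 2.61% of all tested genes were, but the list's median log2 fold change was below 0, at -0.11, and without the fold minimum 2 were higher and 5 lower at an adjusted p under 0.01, where 25.8% and 24.2% of all tested genes were. By DESeq2 and by limma on FPKM also 2 were called higher and 0 lower, and 3 were higher and 5 lower at an unadjusted p under 0.05 in edgeR, beside 32.2% and 31.4% of all tested genes. Myc, a growth-promoting transcription factor, had 6278, 5690 and 6074 counts under DMSO and 13117, 13562 and 13150 under SD70, and rose by a log2 fold change of 1.24 ± 0.05 (SE, adjusted p = 1.06e-20 by edgeR's quasi-likelihood test). Ccnd2, a D-type cyclin, rose by 1.23 ± 0.05 (adjusted p = 6.04e-20). Its relative Ccnd3 was at -0.77 ± 0.06 (adjusted p = 3.22e-14), in the opposite direction and below the fold minimum.

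Several transcription factors known to act at the Csf2 promoter were called. Of 20 tested genes in this list, 5 were called higher, where 3.29% of all tested genes were, and 1 was called lower, where 2.61% were. The median log2 fold change was 0.27. Ets2, a member of the ETS family, had 2247, 2171 and 2195 counts under DMSO and 5768, 5677 and 6170 under SD70. Its rise of 1.51 ± 0.06 (SE, adjusted p = 5.89e-20 by edgeR's quasi-likelihood test) was the largest of the list. Relb, an NF-kappaB subunit, went from 424, 393 and 362 counts to 910, 1078 and 993, a rise of 1.43 ± 0.07 (adjusted p = 1.64e-17). Junb, a subunit of AP-1, rose by 1.22 ± 0.06 (adjusted p = 3.10e-19), and Cebpg, a partner of C/EBP and ATF proteins, rose by 1.11 ± 0.06 (adjusted p = 1.82e-18). Cebpb stood at the fold minimum with 1.00 ± 0.08 (adjusted p = 5.22e-09), and its call was lost without DMSO sample 1, SD70 sample 2 or SD70 sample 3, at log2 fold changes of 0.92, 0.97 and 0.94. It was lost as well with library totals alone (0.96), in both fits with another filter on low counts (0.9996 and 0.99) and in both limma fits (0.955 and 0.97). Fosb, another AP-1 subunit, had 117, 96 and 114 counts under DMSO and 48, 52 and 45 under SD70, and fell by 1.08 on the log2 scale (SE 0.16, adjusted p = 3.01e-07 by edgeR's quasi-likelihood test), a call not made in limma on log2(FPKM + 1), at -0.63. AP-1 members thus did not share 1 direction. Nfatc2 was not analysed here.

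Among factors that bind or break down AU-rich and stem-loop mRNAs, 1 of 16 tested was called higher and 0 lower by edgeR, as by DESeq2 and limma, where 3.29% of all tested genes were called higher and 2.61% lower in edgeR, with 6 higher and 3 lower at an unadjusted p under 0.05 in edgeR. At that unadjusted threshold 32.2% of all tested genes were higher and 31.4% lower. The median log2 fold change of the list was 0.06. Arid5a, an RNA-binding protein known to stabilise cytokine mRNAs, had 553, 639 and 650 counts under DMSO and 3794, 4142 and 4102 under SD70. It rose by 2.81 ± 0.07 (SE, adjusted p = 1.25e-25 by edgeR's quasi-likelihood test), or 6.99-fold. Zc3h12a, which encodes the nuclease Regnase-1 that degrades cytokine mRNAs, was at 0.89 ± 0.06 (adjusted p = 3.27e-14), and Zfp36l2, of the family that binds ATTTA elements, was at -0.32 ± 0.05 (adjusted p = 1.01e-06), both below the fold minimum. How the ATTTA density of the 3 ligands bears on their levels was not tested. Over all 7 lists, 8 of 83 tested genes were called higher and 2 lower, beside the 3.29% and 2.61% of all tested genes, with a median log2 fold change of -0.04.

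**Figure D3:**
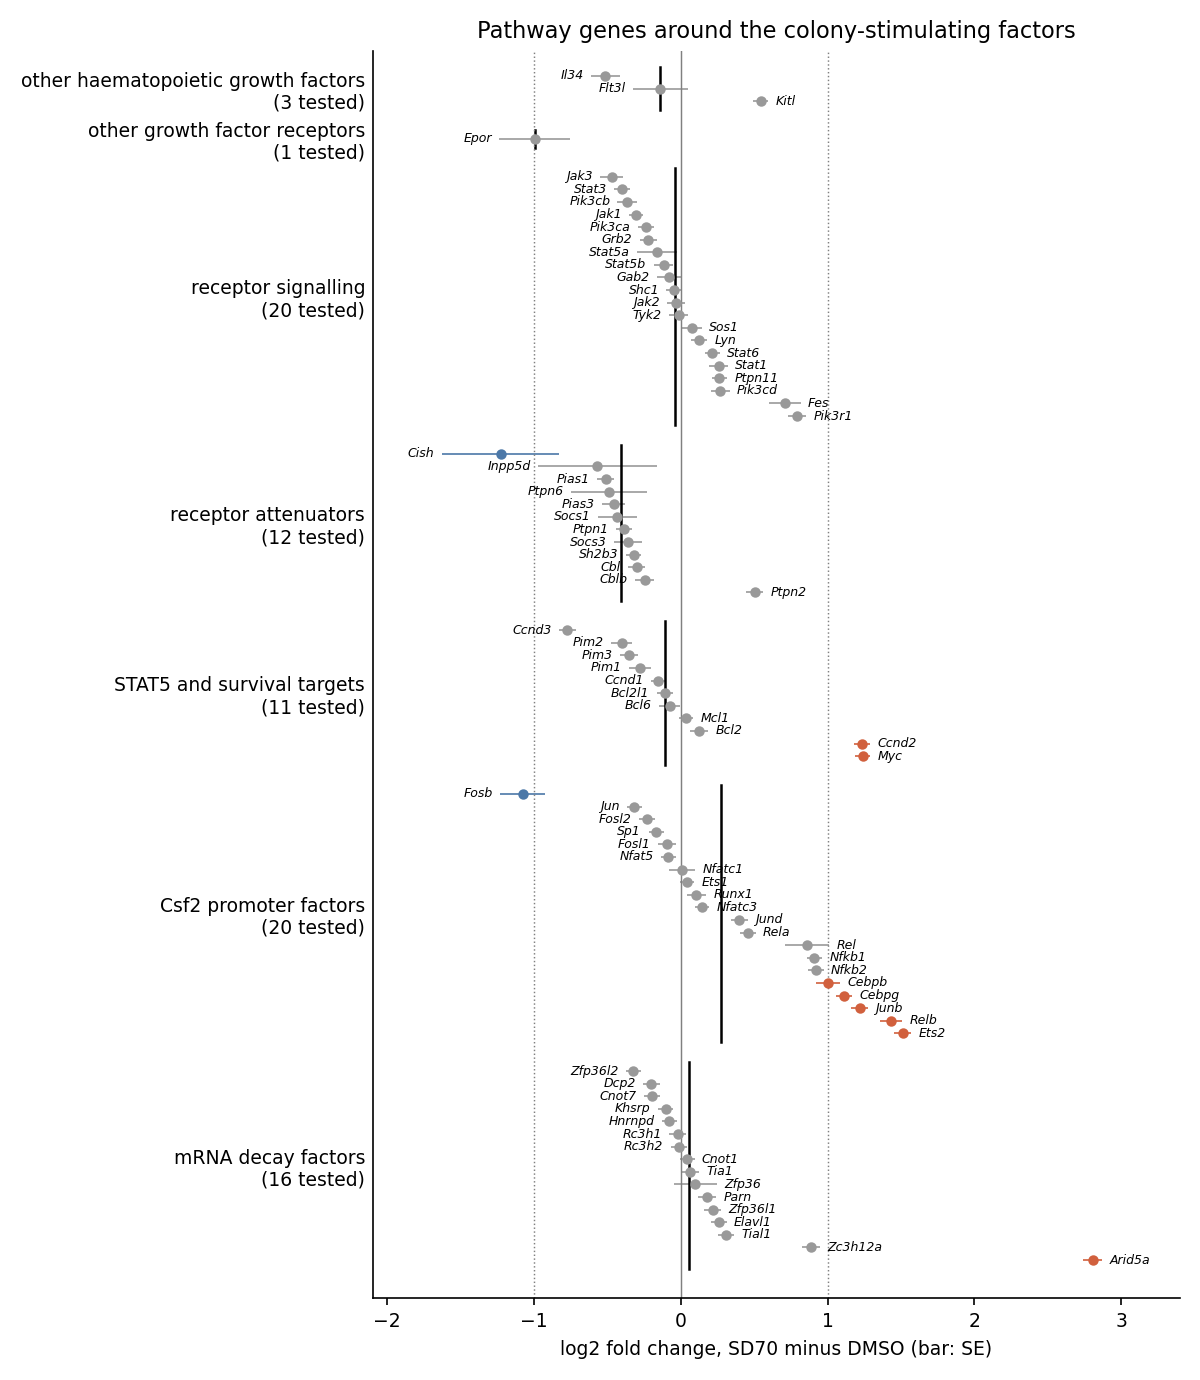
Log2 fold change, SD70 minus DMSO (x axis, bar for the SE), of the 83 tested genes in the 7 lists (y axis), with called genes in orange (higher) or blue (lower), a black line at each list's median and dotted lines at the fold minimum. The transcription factor list reaches furthest to the right as a group with a median of 0.27, the attenuators lie to the left at -0.41, and Arid5a at 2.81 stands alone among the decay factors.

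The genes beside the members were examined as well. Csf2ra had neighbours only before it, since no listed gene follows it on its chromosome in the RefSeq table. Of the 45 distinct genes that are the 5 nearest listed genes on each side of the members in the RefSeq table, 33 were tested, 1 was called higher and 0 lower by edgeR's quasi-likelihood test, where 3.29% of all tested genes were called higher and 2.61% lower, and 11 were higher and 11 lower at an unadjusted p under 0.05, beside 32.2% and 31.4% of all tested genes. DESeq2 called 0 in either direction and limma on log2(FPKM + 0.1) called 1 lower. The median log2 fold change of the neighbours was -0.08. The called gene was Gm12223, whose RefSeq span (chr11:54141868-54260537) includes Csf2 and which GENCODE annotates as antisense to it. Gm12223 had 14, 7 and 15 counts under DMSO and 22, 30 and 24 under SD70, a log2 fold change of 1.16 ± 0.30 (SE, adjusted p = 0.00132 by edgeR's quasi-likelihood test). The call was lost without DMSO sample 2 (adjusted p = 0.0214) or SD70 sample 2 (adjusted p = 0.0116), in DESeq2 (adjusted p = 0.0116), and in limma, at 0.27 on log2(FPKM + 1). The sources used here do not say that counting used strand, so reads of Csf2 and Gm12223 where they overlap cannot be told apart.

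None of the other tested neighbours was called. Ahcyl1, 44487 bases before Csf1, was at 0.06 ± 0.05 (SE), and Eps8l3, 113390 bases after it, had too few counts. Il3, 15185 bases after Csf2, had the single count given above, and P4ha2, the next gene before Csf2 and Gm12223, was at -0.53 ± 0.06 (adjusted p = 6.30e-09 by edgeR's quasi-likelihood test). Psmd3, 4204 bases before Csf3, was at 0.12 ± 0.05 and Med24, 965 bases after it, at -0.17 ± 0.06, with adjusted p of 0.0523 and 0.0171 by edgeR's quasi-likelihood test. Around the receptor chains, Gm7102 before Csf2ra was at 0.14 ± 0.29 and Tst after Csf2rb was at -0.15 ± 0.30, while Ncf4 before Csf2rb2 had too few counts. P4ha2 falls outside the rule for named genes and was chosen after its value was seen.

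**Figure D4:**
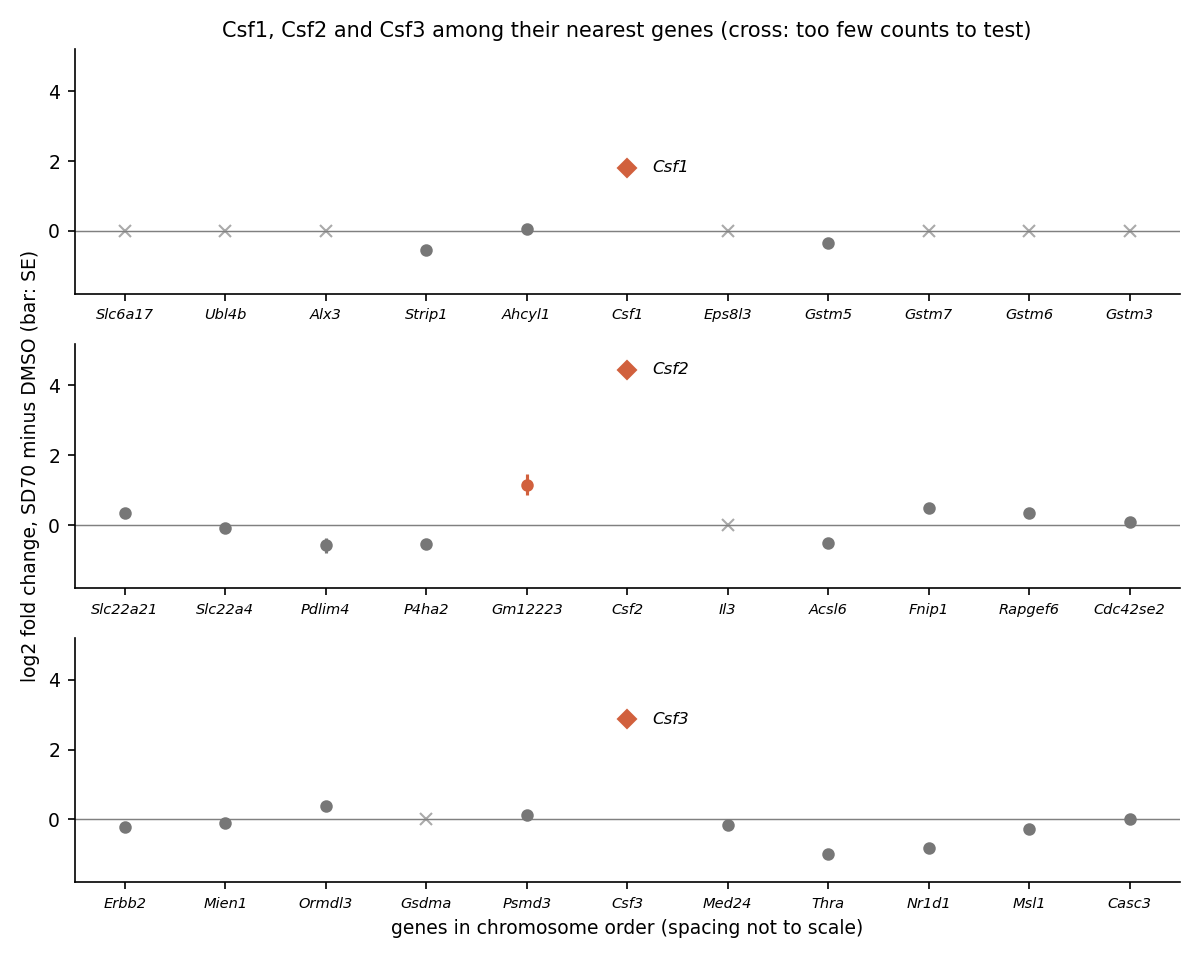
Log2 fold change, SD70 minus DMSO (y axis, bar for the SE), of Csf1, Csf2 and Csf3 (diamonds) and the 5 nearest listed genes on each side in chromosome order (x axis, not to scale), with crosses for genes with too few counts to test. Csf2 stands at 4.46 while its tested neighbours lie between -0.58 and 1.16, and only Gm12223, which overlaps it, is called.

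Genes with the profile closest to that of Csf2 and Csf1 were found by the root mean square difference of log2 CPM (counts scaled to the library total) over the 6 samples, each gene being set to its DMSO mean, among the 9623 tested genes whose normalized counts averaged 100 or more. The 5 closest to Csf2 were Chac1 (a glutathione-degrading enzyme, distance 0.434), Gdf15 (a secreted stress factor, 0.496), Atf3 (a stress-induced transcription factor, 0.518), Cass4 (a scaffold protein, 0.744) and Ccl20 (a chemokine, 0.960). None was near to it in size, since their log2 fold changes ran from 3.08 for Ccl20 to 3.88 for Chac1, all below the 4.46 of Csf2. Chac1 had 140, 177 and 202 counts under DMSO and 2279, 2544 and 2314 under SD70. Atf3 had 295, 280 and 308 counts under DMSO and 3393, 3816 and 3793 under SD70. The 5 closest to Csf1 lay much nearer, at distances of 0.0528 for Slc7a11 (a cystine transporter), 0.0564 for Cxcl1 (a neutrophil chemokine), 0.0588 for Gm32856, 0.0613 for Gpcpd1 (a phosphodiesterase) and 0.0680 for Parp14 (an ADP-ribosyltransferase). Cxcl1 had 26893, 22944 and 24218 counts under DMSO and 87638, 80319 and 76745 under SD70. Likeness over 6 samples in 2 groups mainly reflects the size of the difference, and as these genes were picked by it, no test is given.

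**Figure D5:**
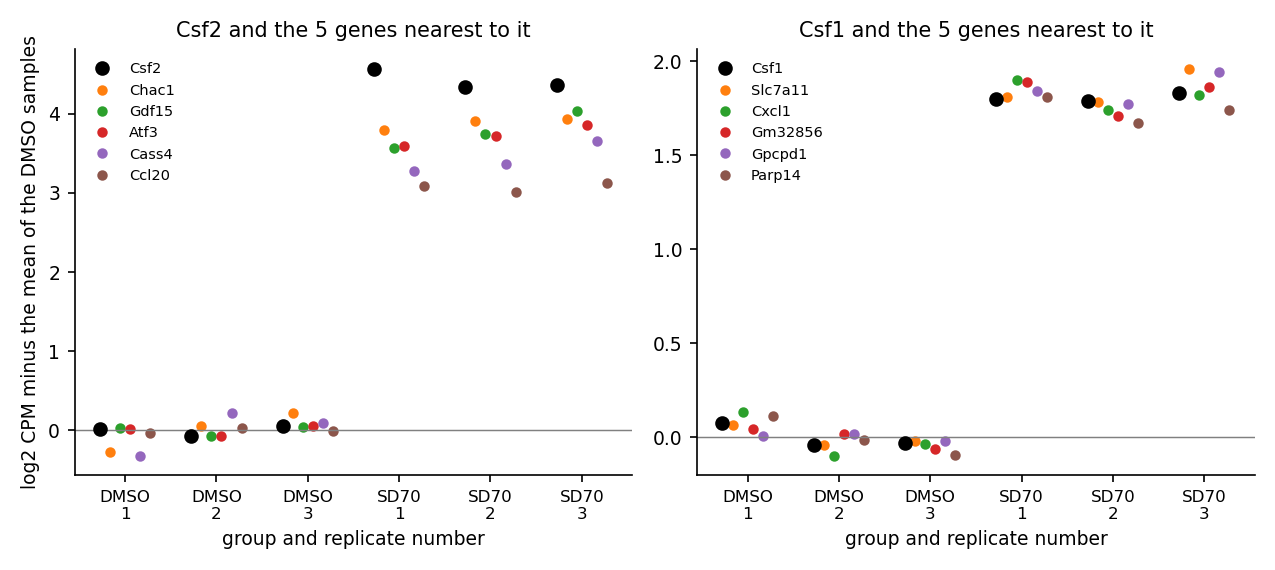
Log2 CPM minus the gene's mean over the DMSO samples (y axis) in each sample (x axis) for Csf2 (left) and Csf1 (right, black points) and the 5 genes closest to each. The SD70 samples of Csf2 lie at 4.34 to 4.57, above those of its closest genes, while those of Csf1 lie at 1.79 to 1.83 among them.

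Markers of other cell types were checked because the factors and receptors are also made by immune and stromal cells. Of 4 leukocyte markers, Ptprc had 0 counts in each DMSO sample and 2, 1 and 2 with SD70, Cd52 had 1 count in all, Coro1a had 0, 0 and 4 counts under DMSO and 3, 3 and 4 under SD70, and the summed normalized level lay between 54.7 and 77.0 with DMSO and between 48.4 and 69.5 with SD70, nearly all from Laptm5. Of 8 myeloid markers 5 were listed, and of these Spi1 and Fcer1g were at or below 2 counts in every sample. The summed level of the myeloid list lay between 503.5 and 506 with DMSO and between 606 and 651 with SD70, and consisted mainly of Cd14 and Cd68, at log2 fold changes of 0.77 ± 0.08 and -0.48 ± 0.10 (SE). The fifth, Lyz2, had 12, 11 and 15 counts under DMSO and 26, 21 and 15 under SD70, a log2 fold change of 0.79 with an adjusted p of 0.0257 by edgeR's quasi-likelihood test. Of 6 T cell markers, 2 were listed, Cd8a and Lck, which summed to at most 5.50. Cd8a had 1, 4 and 3 counts under DMSO and 1, 3 and 2 under SD70. Lck had 1, 0 and 0 counts under DMSO and 3, 1 and 3 under SD70. Endothelial markers summed to between 58.5 and 80.3, nearly all from Cdh5, with Pecam1 at 4 counts or fewer. Ptprc, Cd52, Coro1a, Cd8a, Lck, Spi1, Fcer1g and Pecam1 thus had at most 4 counts in any sample. Laptm5, Cd14, Cd68, Lyz2 and Cdh5 of the same lists had more than that in every sample. The cells carried Krt8 at 2382 to 4150 counts but had at most 1 count of Epcam, Cdh1, Krt19 or Sftpc in any sample, and of the fibroblast list they carried Col3a1 (10298 to 13180 counts) with Col1a1 at 6 counts or fewer. Members of the fibroblast list did not share 1 direction. Pdgfrb rose by 1.54 ± 0.07 (SE, adjusted p = 2.09e-17 by edgeR's quasi-likelihood test), whereas Pdgfra, at 1848, 1750 and 1833 counts under DMSO and 914, 865 and 767 under SD70, was at -0.9987 (adjusted p = 9.33e-17), just short of the fold minimum that it passed in 9 of 14 alternatives. Col3a1 and Dcn were at -0.19 each, and Lum was at 0.46 (adjusted p = 0.0827). Of the epithelial list, Krt8 was at -0.55 (adjusted p = 3.28e-11) and Krt18 fell by 1.23 on the log2 scale (SE 0.18, adjusted p = 2.97e-07 by edgeR's quasi-likelihood test), a call not made in limma on log2(FPKM + 1), at -0.92. The part of these marker differences, and of those in Cd14 and Lyz2, in the ligand values was not tested. The labels call these cells lung adenocarcinoma cells. Of their epithelial markers, Epcam and Cdh1 were thus practically absent while Krt8 and Krt18 were expressed, and of the 2 listed lung markers Sftpc was practically absent while Napsa had 65 to 85 counts in every sample. The summed fibroblast level was 15950 to 16154 with DMSO and 13771 to 14909 with SD70, the epithelial one 3916 to 4106 and 2573 to 2896, and the lung epithelial one 65.1 to 82.8 and 64.6 to 88.0. Kdm4c, the gene of the enzyme that SD70 inhibits, had 803, 736 and 794 counts under DMSO and 790, 739 and 691 under SD70, and a log2 fold change of 0.02 ± 0.06 (SE).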

How the data were processed

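RNA-seq of 6 Lewis cell samples was used, 3 with DMSO and 3 with SD70, grouped by the sample titles. The authors deposited, for each sample and gene, an expected count without normalization, often fractional (8.84% to 9.28% of values), and an FPKM value scaled by gene length and library size. Per the methods of the study, mRNA was read on the BGISEQ-500 platform and aligned to GRCm38.p6 with HISAT, and the submitters' processing notes name StringTie 1.3.3b and the build mm8. The files hold no coordinates, and all coordinates here come from RefSeq and GENCODE M21 on GRCm38. RefSeq's table matched 15978 of 16081 gene identifiers.

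Expected counts were rounded, filtered by filterByExpr (11552 genes kept), scaled by TMM (factors 0.984 to 1.02) and fitted with edgeR 4.0.16 (glmQLFit, robust, and glmQLFTest, two-sided) in R 4.3.3, with Benjamini-Hochberg adjustment over all genes tested. A call needed an adjusted p under 0.01 and an absolute difference of at least 1 on the log2 scale. Each SE was taken from the F statistic. Normalized counts are counts scaled by the effective library size. On simulated counts, edgeR recovered 198 of 200 genes changed by a log2 fold change of 2 among 11539, with 0 unchanged genes called. Within groups, chi-square values per gene of 2.08 to 4.78 showed no duplicated library.

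Replicate numbers come from the titles. Deviations from the group means were correlated for same-numbered samples (r = 0.117, 0.166 and 0.135). The values for other numbers (-0.131 to -0.0105) are partly fixed by these, since deviations cancel within a group. The numbers may thus pair the samples. The fit used for the Results took no account of them, and they entered only as the replicate block, an alternative described below.

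The members, gene lists and tests were chosen with earlier results of these data known. Genes named were the members, all listed growth factors and receptors of the first 2 lists, up to 6 called genes of each other list (or its 3 largest differences where fewer than 3 were called), neighbours that were called or nearest, the 5 genes most like Csf2 and Csf1, marker genes and Kdm4c. A receptor of the second list is not reported here. Alternatives were other scalings and filters, the replicate block, each sample left out, DESeq2 1.42.0, limma 3.58.1 on log2(FPKM + 1) and log2(FPKM + 0.1), and other thresholds. Floors of 3 counts cover counting error only, while each SE also includes the estimated spread between samples.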

Additional observations from a re-analysis of the deposited data

How the results depend on the processing

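The log2 fold change of Csf1 lay between 1.77 and 1.84 over all 14 alternatives. That of Csf2 lay between 4.38 and 4.50 with each sample left out and was 4.25 in limma on log2(FPKM + 1). That of Csf3 lay between 2.66 and 3.05 with each sample left out and was 1.93 in limma on log2(FPKM + 1), where a pseudocount of 1 is close to its DMSO level. That of Csf2ra lay between -0.01 and 0.44 with each sample left out. No alternative turned the direction of Csf1, Csf2 or Csf3.

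With the replicate block, 692 genes were called in place of 681, and the block changed no call among the 54 tested genes named here other than the members. The genes called numbered 621 to 721 with each sample left out, 283 in limma on log2(FPKM + 1) and 5767 with no fold minimum. Higher calls in the lists were 7 to 8 with each sample left out and 25 with no fold minimum. Lower calls were 1 in DESeq2, 0 in limma on log2(FPKM + 1), 1 in limma on log2(FPKM + 0.1) and 29 with no fold minimum, 3 with library totals alone, and 2 in each fit that left out a sample. The 2 were not always the same genes: without DMSO replicate 1, DMSO replicate 2, SD70 replicate 2 or SD70 replicate 3, Cish was not called and Epor was. Neighbours called higher were 0 with at least 10 counts in every sample (Gm12223 is then not tested), 0 in DESeq2 and both limma fits, 0 to 1 with each sample left out and 8 with no fold minimum. Neighbours called lower were 1 with library totals alone, 1 in limma on log2(FPKM + 0.1), 0 to 1 with each sample left out and 7 with no fold minimum. That 1 gene was Thra, near Csf3, at -0.98 in the edgeR fit of all samples, and the fit that called it left out DMSO replicate 3. Thra was named after its value was seen. Among these 54 genes, direction turned only where the difference was near 0: Kdm4c was at -0.0148 with library totals alone, at -0.0071 and -0.0076 in the limma fits, and at -0.0237 and -0.0106 without DMSO replicate 2 and SD70 replicate 1, so that leaving out each sample gave -0.0237 to 0.0551. Gm7102 was at -0.112 and -0.0151 without DMSO replicate 1 and SD70 replicate 1 (range -0.112 to 0.382), and Tst at 0.0795 without DMSO replicate 3 (range -0.304 to 0.0795). Napsa was at 0.0024, 0.0022 and 0.0179 without DMSO replicate 1, SD70 replicate 1 and SD70 replicate 2 (range -0.2227 to 0.0179). Causes were not tested where none is given.

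Depth limits the receptor chains, Csf1r and Csf3r, and Csf3 with DMSO, and 3 samples a group limit every comparison. The few counts of Csf2rb, Csf2rb2, Csf1r and Csf3r cannot show a difference, and those of Csf2ra left an SE of 0.48 on the log2 scale.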
